A study of Mus musculus with 3 samples.

Results

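The genes described are 10 of the 31053 gene identifiers counted in each library, chosen by name as markers of dendritic cell identity and maturation: Flt3, Cd209a, Klrd1, Cd7, Ccr7, Ccl17, Ccl22, Fscn1, Ffar2 and Kmo. All 10 were found by symbol in the feature tables of all 3 libraries. The libraries came from 10x Chromium single-cell sequencing, in which each captured transcript is counted once in its cell by a unique molecular identifier (UMI), of cells taken as monocytes and macrophages out of digested skin wounds of male C57BL6/J mice. The 3 groups were wounds at day 3, day 6 and day 10 post-injury, with no other allele or agent, no unwounded skin and 1 library per day. Each library pooled the cells of 2 mice that cannot be told apart, so nothing between days can be set against the spread between animals. The question put to the genes was how their UMIs lay across the 3 days and whether the genes around Ccr7 and the genes around Cd209a were found in separate cells.

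Dendritic cells take up antigen in the skin, mature when they sense damage or microbes, and then crawl into lymphatic vessels towards the draining lymph node. Ccr7, the receptor for Ccl19 and Ccl21, steers that exit, and Fscn1, an actin-bundling protein, stiffens the long protrusions of the mature cell. Ccl17 and Ccl22 are secreted chemokines that share the receptor Ccr4 and draw T cells. Flt3 is the receptor tyrosine kinase for the growth factor that sustains dendritic cell development, and Cd209a is a C-type lectin related to human DC-SIGN that is found on dendritic cells of monocyte or type 2 conventional origin. Klrd1 (CD94) and Cd7 are surface proteins best known from natural killer and T cells. Ffar2 is a receptor for short-chain fatty acids, and Kmo is the kynurenine 3-monooxygenase of tryptophan breakdown.

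The promoters of 4 genes are shown because their UMIs mark the opposite ends of the pattern described below: Fscn1, Ccl22 and Ccl17 were concentrated in 1 small set of cells, and Cd209a was concentrated in another. Each line gives the 250 bases before the annotated start from RefSeq (GRCm38.p6), 5′ to 3′ on the gene's strand, and capitals mark a match to the sequence GAGGAA bound by PU.1 and related Ets factors.
Fscn1, plus strand of chr5:142960105-142960354: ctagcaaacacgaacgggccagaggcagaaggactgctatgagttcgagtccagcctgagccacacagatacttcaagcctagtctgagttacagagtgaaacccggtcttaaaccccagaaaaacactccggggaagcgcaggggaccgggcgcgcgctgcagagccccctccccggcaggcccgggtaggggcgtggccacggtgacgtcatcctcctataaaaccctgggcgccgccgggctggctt
Ccl22, plus strand of chr8:94745434-94745683: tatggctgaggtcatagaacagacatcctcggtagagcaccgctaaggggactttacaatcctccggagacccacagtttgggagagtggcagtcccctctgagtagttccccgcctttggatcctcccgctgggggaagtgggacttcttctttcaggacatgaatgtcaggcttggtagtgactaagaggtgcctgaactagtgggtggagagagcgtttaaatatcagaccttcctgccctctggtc
Ccl17, plus strand of chr8:94810203-94810452: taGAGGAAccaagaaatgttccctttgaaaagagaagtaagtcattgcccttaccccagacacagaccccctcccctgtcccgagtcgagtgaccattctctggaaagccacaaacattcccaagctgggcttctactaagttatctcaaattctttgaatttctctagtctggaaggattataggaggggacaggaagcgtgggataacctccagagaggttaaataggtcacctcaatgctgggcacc
Cd209a, minus strand of chr8:3748985-3749234: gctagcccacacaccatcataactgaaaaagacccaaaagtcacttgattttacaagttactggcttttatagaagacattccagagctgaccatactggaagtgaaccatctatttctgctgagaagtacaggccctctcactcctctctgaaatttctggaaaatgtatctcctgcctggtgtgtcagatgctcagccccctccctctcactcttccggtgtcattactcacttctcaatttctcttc
Promoter entries were matched for 7 of the 10 genes, with 4 alternative starts for Ffar2. Of 3 motifs searched on both strands, GAGGAA was found in Ccl17, in Kmo and as a single stretch shared by 2 overlapping Ffar2 promoters, against 23.3% of all 32851 promoters of the same length. The AP-1 motif TGANTCA was found at 1 Ffar2 start, against 6.75% of all promoters, and the NF-kB motif, searched as GGGA, any 2 bases, T, any base and CC, was found in none of the 7 genes, against 3.33%. A match is a string of letters and says nothing of binding. Ccl22 and Ccl17 are neighbours on chromosome 8, with 58753 bases between the end of Ccl22 (94745590 to 94751699) and the start of Ccl17 (94810453 to 94812036), both on the plus strand of GRCm38, the GENCODE coordinates, in which Ccl22 starts upstream of its RefSeq start.

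After barcodes with under 200 detected genes or 10% or more mitochondrial UMIs were left out, 900, 598 and 1362 cells remained at days 3, 6 and 10, with 7263942 to 12115163 UMIs per library and medians of 8285 to 11778.5 UMIs per cell. No kept barcode was shared between day 3 and another library, and 2 were shared between day 6 and day 10. Clustering without the 10 genes gave 12 clusters. Cluster 10 and cluster 1 were dendritic-cell-like from a marker list that holds none of the 10 genes, 8 clusters were monocyte/macrophage-like or endothelial-like, and 2 stayed unnamed. The labels name monocytes and macrophages only, so the gates of the isolation, which are not given in the sources used here, may have set how many dendritic-cell-like cells were recovered.

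The UMIs of the 10 genes lay mostly in 2 clusters, and they divided the genes into a Ccr7 side and a Cd209a side. Cluster 10 held 22 of the 2860 cells (9 at day 3, 7 at day 6 and 6 at day 10) and carried 93.3% of all Fscn1 UMIs, 83.9% of Ccl22, 73.9% of Ccl17 and 73.4% of Ccr7. Cluster 1 held 439 cells (123, 131 and 185) and carried 95.8% of Ffar2 UMIs, 95.8% of Cd7, 3236 of 3406 Klrd1 UMIs, 91.3% of Cd209a, 84.3% of Kmo and 81.8% of Flt3. Of the second group of genes, Cd7, Cd209a and Ffar2 were nearly missing from cluster 10, with 0, 2 and 2 UMIs over the 22 cells. Kmo was found in 4 of the 22 cells, on 7 UMIs. A share of UMIs also grows with the number of cells in a cluster. Ccr7 and Ccl17 were less exclusive than Fscn1, since cluster 1 carried 22.2% of Ccr7 and 21.6% of Ccl17 UMIs, but 8.05% of Ccl22 and 1.12% of Fscn1. Flt3 was the gene common to both sides, at 225 UMIs per 1000000 UMIs of the summed cells (CPM) in cluster 10 and 107 CPM in cluster 1. Klrd1 was also present on both, in 12 of 22 cells of cluster 10 and in 342 of 439 cells of cluster 1. Clusters are described without a test. With a finer clustering cluster 1 divided, so that the leading cluster held 51.5% of Cd209a UMIs, while the share of Ccr7, Fscn1, Ccl17 and Ccl22 in their leading cluster stayed the same at all 3 resolutions.

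**Figure D1:**
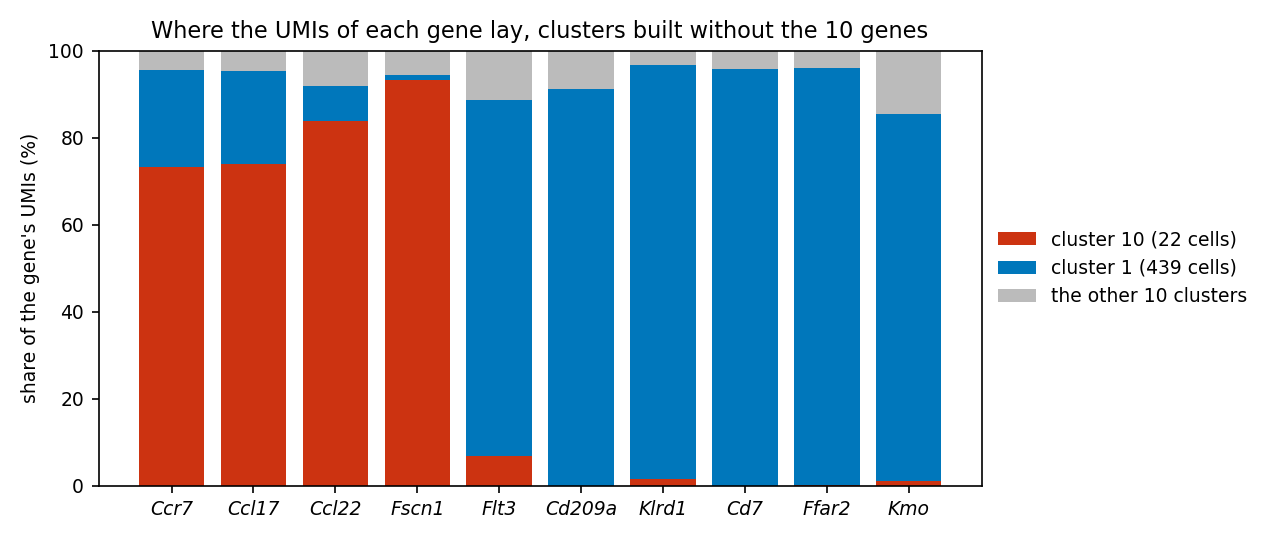
Bars show the share of each gene's UMIs over all 2860 kept cells (vertical axis, %) that lay in cluster 10, in cluster 1 or in the other 10 clusters, which were built without the 10 genes. Ccr7, Ccl17, Ccl22 and Fscn1 have 73.4 to 93.3% of their UMIs in the 22 cells of cluster 10, and Cd209a, Klrd1, Cd7, Ffar2, Kmo and Flt3 have 81.8 to 95.8% in cluster 1.

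To ask whether the anchors Ccr7 and Cd209a fell in separate cells, a cell was called positive for a gene at 2 or more UMIs. Ccr7-positive cells numbered 16, 19 and 12 at days 3, 6 and 10, and Cd209a-positive cells 132, 112 and 174. Cells positive for both numbered 7, 9 and 3, which is 19 of 47 Ccr7-positive cells (40.4%, exact binomial 95% interval 26.4 to 55.7%) and 4.55% of the 418 Cd209a-positive cells. The product of the shares would give 6.87 such cells. The anchors were thus found together in some cells. The share depended on the threshold and on depth, at 35.3% with 1 UMI (24 cells, against 11.3 by the product), 32.6% with 3 (15 against 6.32) and 21.2% with 5 (7 against 4.11). When every cell was first thinned to 2000 UMIs, it was 9.09% (2 of 22 cells, 1.12 to 29.2%), against 8.99% of all thinned cells and 1.98 cells by the product. The 19 cells positive for both held a median of 7 Ccr7 UMIs at a median depth of 18435 UMIs, so few could keep 2 after thinning. The thinned count can therefore neither show nor exclude an excess at equal depth.

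The 28 Ccr7-positive cells below the Cd209a threshold (9, 10 and 9 at days 3, 6 and 10, called Ccr7 cells) and the 19 cells with both differed in which other genes they held. All 28 Ccr7 cells had 0 Cd209a UMIs and 0 Cd7 UMIs, where the threshold alone would have allowed 1 Cd209a UMI, and 0 of 28 allows up to 10.7% of cells with a UMI (exact upper limit 12.3%), which does not limit cells that express the gene. Fscn1 was detected in 18 of the 28 Ccr7 cells and in 0 of the 19 cells with both. The 28 Ccr7 cells held a median of 15.5 Ccr7 UMIs (3 to 110), and the 19 cells with both a median of 7 (2 to 30). In the cells with both, Cd209a ranged from 2 to 68 UMIs with a median of 13, close to the median of 15 in the 399 cells positive for Cd209a only (called Cd209a cells). By the clusters, 20 of the 28 Ccr7 cells lay in cluster 10, 3 in cluster 1 and 5 in the monocyte/macrophage-like clusters 4 and 6, while 18 of the 19 cells with both lay in cluster 1 with the Cd209a cells. Cluster 10 held 0 of the 399 Cd209a cells. The cells with both were also deep, at a median of 18435 UMIs, against 13857 for Ccr7 cells and 15520 for Cd209a cells. None of the 19 was called a doublet by Scrublet, which called 12, 6 and 5 of the kept cells in all. Among these were 1 Ccr7 cell, at day 6, and 2, 0 and 2 Cd209a cells at days 3, 6 and 10, which stayed in their groups.

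The few Ccr7 cells of each library differed in the other genes detected. Fscn1 was detected in 9 of 9 Ccr7 cells at day 3 (exact interval 66.4 to 100%). It was detected in 6 of 10 at day 6 (26.2 to 87.8%) and 3 of 9 at day 10 (7.49 to 70.1%). The Ccr7 cells also differed in depth, at medians of 6830, 14808.5 and 14499 UMIs. A deeper cell reaches 2 Ccr7 UMIs at a smaller share of Ccr7. The 18 cells with Fscn1 held a median of 35 Ccr7 UMIs (3 to 110) and 10 Ccl22 UMIs (0 to 90), and Flt3 was detected in 14 of them. The 10 cells without Fscn1 held a median of 5 Ccr7 UMIs (3 to 29) and 0.5 Ccl22 UMIs (0 to 62), and Flt3 was detected in 4. Markers of monocytes and macrophages also differed between the days, but in another order, at 450 CPM summed over 29 genes in the day 3 Ccr7 cells (7 of 29 detected, with Adgre1, Csf1r, C1qa and Mertk at 0), 7509 CPM at day 6 (24 detected) and 3863 CPM at day 10 (22 detected). Erythroid and platelet markers stood at 0, 664 and 601 CPM in the same cells, where Pf4, which macrophages can also express, was the only one detected at day 6. The part of these markers, and of depth, in the differences between days was not tested.

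**Figure D2:**
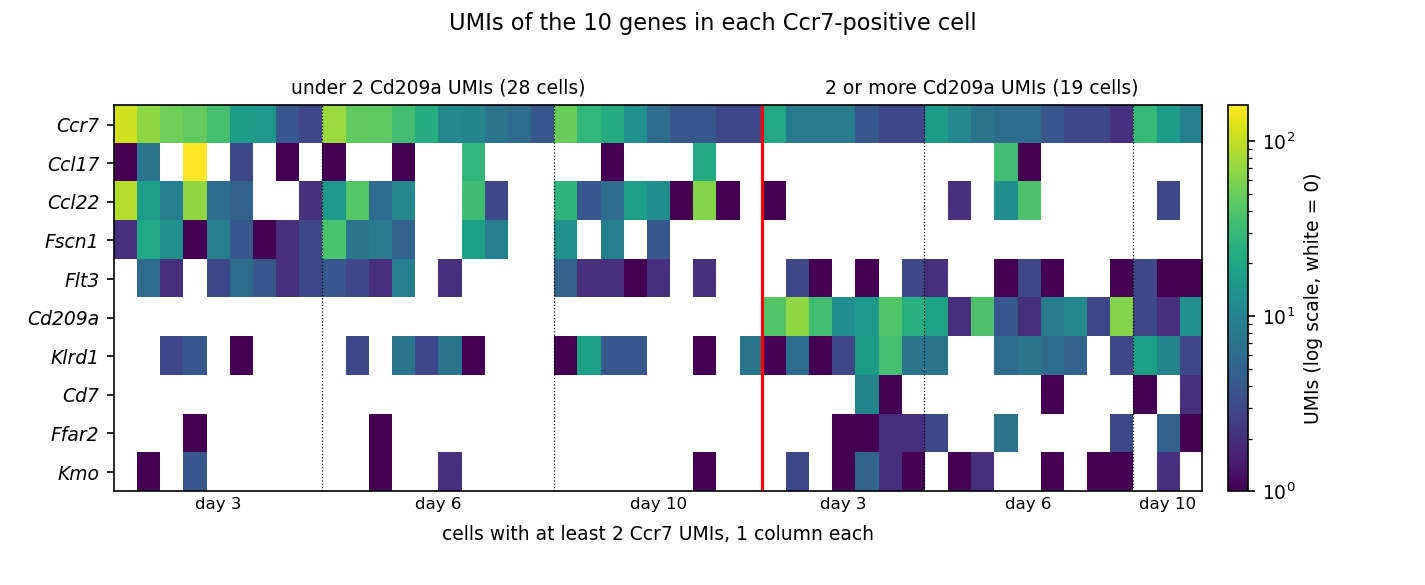
Each column is 1 of the 47 cells with at least 2 Ccr7 UMIs and each row 1 gene, with the UMI count in colour on a log scale and white for 0; the red line separates the 28 cells under 2 Cd209a UMIs from the 19 with 2 or more, and days run left to right inside each. Fscn1 is seen in 18 cells left of the line and in none to its right, and Cd7 the other way round (0 and 5 cells).

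Pairs of genes were also counted by detection in the same cell. Of the 29 cells with any Fscn1 UMI, 18 also held Ccr7 (62.1%, 42.3 to 79.3%) and 17 held Ccl22, against 1.77% and 1.24% of cells without Fscn1. Cd209a was found in 2 of the 29 (6.90%, 0.846 to 22.8%), against 16.7% of cells without Fscn1. At 2 UMIs of each gene, 16 of 17 cells with Fscn1 held Ccr7 and 0 of 17 held Cd209a (exact upper limit 19.5%), against 14.7% of the other cells, so at this number of cells Cd209a was not shown to be rarer in cells with Fscn1 than in the rest. On the other side, 189 of the 206 cells with Cd7 held Cd209a (91.7%, 87.1 to 95.1%) and 216 of 252 cells with Ffar2 did (85.7%, 80.8 to 89.8%), against 10.7% of cells without Cd7 and 9.89% of cells without Ffar2. Kmo was a looser companion, with Cd209a in 270 of its 347 cells (77.8%, 73.1 to 82.1%). Ccl17 stood between the sides: of its 35 cells, 21 held Cd209a and 12 held Ccr7, although most of its UMIs were in Ccr7 cells. Flt3 was detected in 64.3% of Ccr7 cells (44.1 to 81.4%), 63.7% of Cd209a cells (58.7 to 68.4%) and 3.65% of the 2414 cells with neither. When UMIs of Ccr7, Ccl22, Fscn1 and Ccl17 were summed and set against the sum of Cd209a, Flt3, Klrd1 and Cd7, with 3 UMIs as the threshold, 42 of 57 cells of the first kind were also of the second (73.7%), and Flt3 and Klrd1, which both sides hold, are in that second sum. Detection rises with depth, and cells with neither were shallower, at a median of 8589.5 UMIs.

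**Figure D3:**
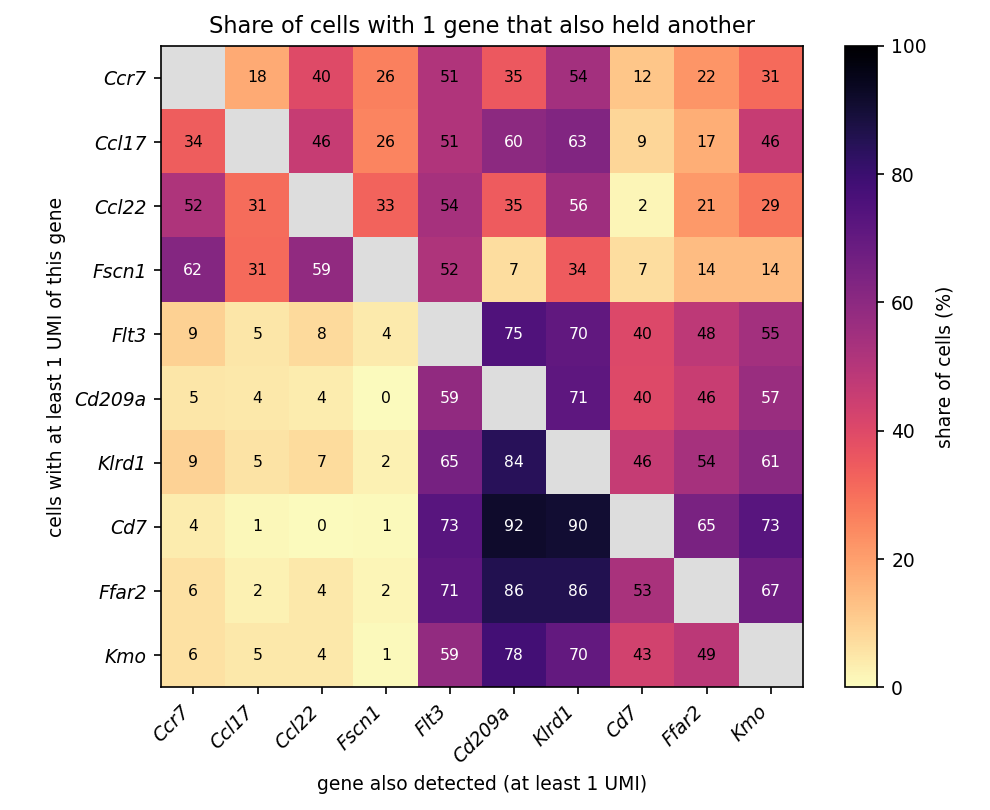
Each square gives, among the cells with at least 1 UMI of the row gene, the share (%) that also held at least 1 UMI of the column gene, over the 2860 kept cells. Cells with Cd7 and Ffar2 mostly held Cd209a (91.7% and 85.7%), cells with Fscn1 held Ccr7 (62.1%) and Ccl22 (58.6%), and 0.422% of cells with Cd209a held Fscn1.

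Levels were then compared between Ccr7 cells and Cd209a cells, with UMIs summed per library and tested by edgeR's quasi-likelihood test over the 3 libraries, each library kept as a block. The libraries are different days, so the test is of an average difference over the days. Agreement of every library was not required for a call. Of 9253 genes tested, 424 were higher (4.58%) and 352 lower (3.8%) in Ccr7 cells at an adjusted p under 0.05. Among the 8 genes that did not choose the cells, Fscn1, Ccl22 and Ccl17 were higher in Ccr7 cells, Cd7, Ffar2 and Klrd1 were lower, and Kmo and Flt3 were not called. Without the day 10 library the counts over all genes were 173 higher and 48 lower, and without day 6 they were 272 and 186. The group carries few UMIs (86612, 167124 and 128136 summed over Ccr7 cells at days 3, 6 and 10), and since it was chosen for having under 2 Cd209a UMIs, the absence of genes that travel with Cd209a depends on that choice.

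Fscn1 had 647, 503 and 203 CPM in Ccr7 cells at days 3, 6 and 10, against 0.483, 0 and 0.416 CPM in Cd209a cells. The 2 Fscn1 UMIs among 399 Cd209a cells make the ratio of 1363-fold a rough one (counting interval 371 to 11347), and the adjusted p was 5.14e-07. Fscn1 was higher in Ccr7 cells in 3 of 3 libraries.

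Ccl22 had 2286, 658 and 1015 CPM in Ccr7 cells, against 6.28, 5.58 and 0.831 CPM in Cd209a cells (log2 difference 8.16, SE 0.84, adjusted p = 1.15e-04). Ccl17 had 1986, 179.5 and 179.5 CPM in Ccr7 cells, against 6.76, 10.0 and 2.91 CPM in Cd209a cells (log2 difference 6.24, SE 0.60, adjusted p = 7.30e-05). Both chemokines were higher in Ccr7 cells in 3 of 3 libraries, and both were highest at day 3. A single day 3 cell with 160 Ccl17 UMIs made up most of that library's 172 Ccl17 UMIs in Ccr7 cells.

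Cd7 had 0 UMIs in all 28 Ccr7 cells, against 184, 99.8 and 148 CPM in Cd209a cells, and was at least 18.6-fold lower in Ccr7 cells when a floor of 3 UMIs over the group is used (adjusted p = 0.0109, and 0.0528 without the day 10 library). Ffar2 had 11.5, 5.98 and 0 CPM in Ccr7 cells, against 111, 130.5 and 85.2 CPM in Cd209a cells, which was 20.4-fold lower on the 2 UMIs found (ratio 0.0491, counting interval 0.00593 to 0.178, adjusted p = 3.50e-03). With 1 UMI or 5 UMIs as the threshold for choosing cells the Ffar2 call was lost (adjusted p = 0.0558 and 0.0611). Klrd1 differed less, at 92.4, 126 and 273 CPM in Ccr7 cells against 409, 497 and 477 CPM in Cd209a cells (log2 difference −1.66, SE 0.42, adjusted p = 0.0271). Klrd1 was lower in Ccr7 cells in 3 of 3 libraries, but its call was lost in 6 of 18 alternative analyses. Among them were those without day 6 or day 10 (adjusted p = 0.081 and 0.069), without the library block (0.0846) and with cells positive for both counted as Ccr7 cells (0.466).

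Kmo had 57.7, 18.0 and 7.80 CPM in Ccr7 cells, against 82.1, 75.8 and 76.9 CPM in Cd209a cells (log2 difference −1.81, SE 0.53, adjusted p = 0.0557). It was lower in 3 of 3 libraries and fell short of the threshold, on only 9 UMIs in Ccr7 cells. Flt3 had 300.2, 119.7 and 109 CPM in Ccr7 cells, against 64.7, 159 and 96.4 CPM in Cd209a cells (log2 difference 0.59, SE 0.45, adjusted p = 0.468). Its groups overlapped, and without day 3 the log2 difference was −0.21.

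**Figure D4:**
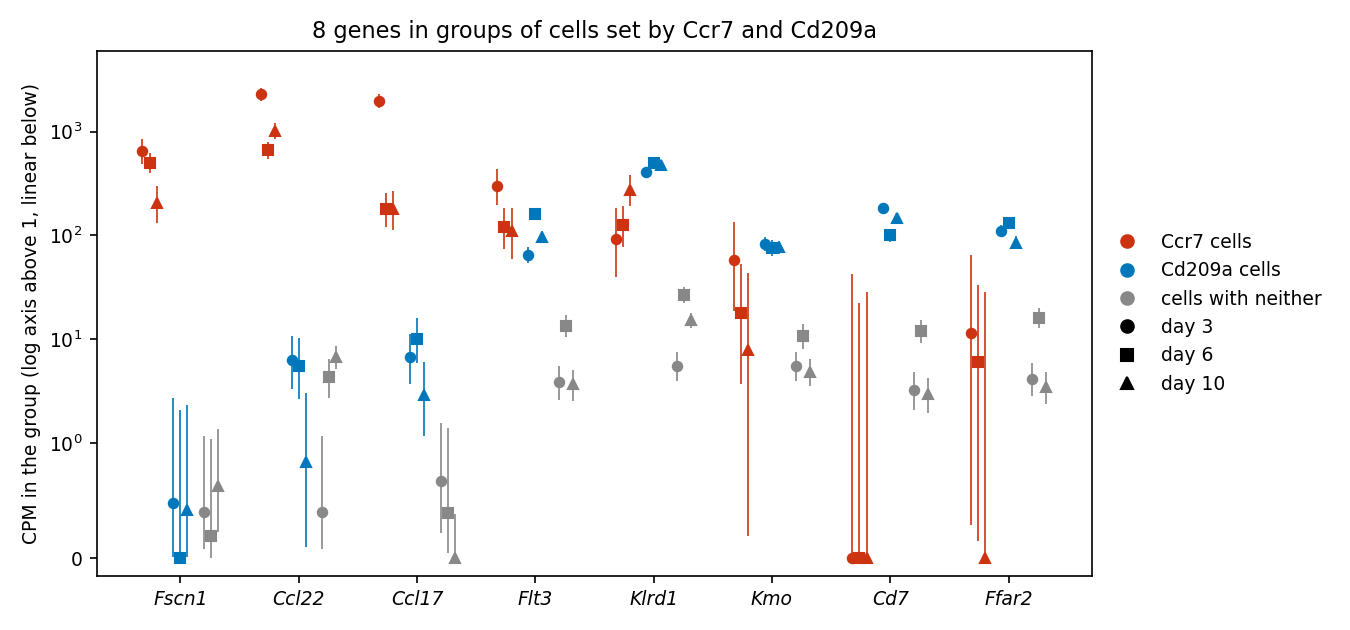
Points give the CPM of 8 genes in Ccr7 cells, Cd209a cells and cells with neither, 1 point per library (circle day 3, square day 6, triangle day 10), with exact Poisson 95% intervals; the vertical axis is logarithmic above 1 CPM and linear below. Fscn1, Ccl22 and Ccl17 are highest in Ccr7 cells, Flt3 and Klrd1 lie above the cells with neither in both groups, and Cd7 is at 0 in all 3 sums of Ccr7 cells.

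Set against the 2414 cells with neither anchor (759, 476 and 1179), both kinds of cells carried Flt3 and Klrd1. In Ccr7 cells against cells with neither, 396 genes were higher (4.28%) and 450 lower (4.86%), and Fscn1, Ccl17, Ccl22, Flt3 and Klrd1 were among the higher ones. Flt3 had 300.2, 119.7 and 109 CPM in Ccr7 cells against 3.88, 13.4 and 3.67 CPM in cells with neither (26.1-fold, counting interval 18.9 to 35.7, adjusted p = 1.09e-04). Klrd1 was 11.5-fold higher (8.64 to 15.1, adjusted p = 3.60e-04). Kmo, at 3.67-fold (1.65 to 7.17, adjusted p = 0.146), Ffar2 (adjusted p = 0.858) and Cd7 (adjusted p = 0.553) were not called. When cells positive for both anchors were counted as Ccr7 cells, Ffar2 was higher in them than in cells with neither (log2 difference 2.48, adjusted p = 4.28e-03), an alternative chosen after seeing the data.

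In Cd209a cells against cells with neither, 1063 genes were higher (11.5%) and 1370 lower (14.8%). Klrd1 was 31.5-fold higher in Cd209a cells (28.1 to 35.5, adjusted p = 3.57e-06), Cd7 28.6-fold (23.5 to 35.1, adjusted p = 3.71e-05), Flt3 17.3-fold (14.3 to 21.0, adjusted p = 1.09e-05), Ffar2 16.1-fold (13.4 to 19.3, adjusted p = 2.95e-06) and Kmo 12.2-fold (10.1 to 14.8, adjusted p = 3.08e-06). Ccl17 was 19.7-fold higher on 39 UMIs (8.70 to 52.1, adjusted p = 2.24e-03), a call that was lost when cells were chosen at 5 UMIs or after thinning. Fscn1 (adjusted p = 0.814) and Ccl22 (adjusted p = 0.932) were not called. Over the 3 libraries, 17 of 399 Cd209a cells held Ccl17.

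Klrd1 and Cd7 are also lymphoid genes, and the markers of lymphocytes and other cells were counted in the same cells. Of 15 natural killer and innate lymphoid markers, 4 or 5 were detected in Cd209a cells per library, with a sum of 20.8 to 37.7 CPM, and Ncr1, Nkg7, Gzma, Prf1 and Eomes were at 0. T cell markers summed to 0.966 to 1.67 CPM. B cell markers (7 genes) stood at 0, 23.9 and 23.4 CPM in Ccr7 cells at days 3, 6 and 10, against 105, 109.8 and 150.04 CPM in Cd209a cells, with Ms4a1 and Pax5 at 0 in both. In cells with neither they stood at 63.5, 39.4 and 33.9 CPM. Cd79b and Ighm were the only 2 detected in Cd209a cells at days 6 and 10, joined by Cd79a at day 3. Neutrophil markers (10 genes) stood at 80.8, 299 and 569.7 CPM in Ccr7 cells, 1369.97, 809 and 904 CPM in cells with both anchors and 365, 246 and 242 CPM in Cd209a cells, with Ly6g, Camp and Ngp at 0 in all 3. Il1r2 was the only one of them detected in cells with both. The neutrophil list stood at 262, 426 and 214 CPM in cells with neither. In Ccr7 cells the natural killer and innate lymphoid list reached 377 to 612 CPM, from 2 to 4 detected genes that included Il7r and Rora, with the same 5 defining genes at 0. That list stood at 71.8, 216 and 134 CPM in cells with neither. Markers of monocytes and macrophages summed to 5259 to 8531 CPM in Cd209a cells and 34090 to 40964 CPM in cells with neither. Dendritic cell markers other than the 10 genes summed to 3317 to 7239 CPM in Ccr7 cells, 3015 to 3833 CPM in Cd209a cells and 560 to 889 CPM in cells with neither. Langerhans cell markers stood at 11.5, 299 and 219 CPM in Ccr7 cells, 35.3 to 56.5 CPM in Cd209a cells and 8.17, 117 and 61.2 CPM in cells with neither. Cd207, which encodes langerin, was at 0 in Ccr7 cells and Cd209a cells. Mfge8 was detected in Ccr7 cells on each day, Epcam at days 6 and 10 and Cdh1 at day 6. All of Mfge8, Epcam and Cdh1 were detected in Cd209a cells on each day. Plasmacytoid markers summed to 297 to 497 CPM in Ccr7 cells, 300.1 to 677 CPM in Cd209a cells and 340 to 731 CPM in cells with neither. In Ccr7 cells 2 or 3 of the 7 plasmacytoid markers were detected per library. The part of all these markers in the results was not tested.

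Other genes of dendritic cell maturation followed the Ccr7 side. Of 30 tested genes of a maturation and migration list, 27 were higher and 0 lower in Ccr7 cells against Cd209a cells, against 4.58% and 3.8% of all genes. The median was 10.2-fold (log2 3.34, against −0.01 over all genes tested). The list was chosen with earlier results of these data known, so the count is a description and not independent support. Genes at 0 in 1 group are entered at the floor in such medians. Cacnb3, a calcium channel subunit, had 716, 239 and 179.5 CPM in Ccr7 cells and 0 UMIs in Cd209a cells, at least 684-fold higher. The serpin Serpinb6b had 439, 311 and 219 CPM in Ccr7 cells, against 0.483, 0 and 0 CPM in Cd209a cells. The costimulatory ligand Cd86 missed the threshold (1.90-fold, adjusted p = 0.0897), while Cd83 (2.48-fold, adjusted p = 0.0156) and the NF-kB subunit Relb (5.06-fold, adjusted p = 2.30e-04) were higher. The same list was mixed in Cd209a cells against cells with neither, with 6 higher, 9 lower and 15 not called (median log2 −0.27, against −0.07 over all genes). Over all genes 11.5% were higher and 14.8% lower in that contrast.

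MHC class II genes, which present antigen to T cells, were high on both sides. In Ccr7 cells against cells with neither, 9 of 12 were higher and 2 lower (median log2 2.34), where 4.28% of all genes were higher and 4.86% lower (median −0.14). In Cd209a cells against cells with neither, 10 of 12 were higher and 2 lower (median log2 2.94), where 11.5% of all genes were higher and 14.8% lower (median −0.07). The 2 lower genes in both were the proteases Lgmn and Ctss. Between the 2 kinds of cells, 1 of 12 was higher and 4 lower in Ccr7 cells (median log2 −0.46), where 4.58% of all genes were higher and 3.8% lower (median −0.01). The 4 lower ones were H2-DMb1 (4.70-fold lower) and H2-DMa (2.60-fold lower), which load peptide, the transactivator Ciita (3.20-fold lower) and the invariant chain Cd74 (1.56-fold lower). H2-Ab1 (8428, 8760 and 7274 CPM in Ccr7 cells, against 9548, 12673 and 12089 CPM in Cd209a cells) was not called. The protease Lgmn was the 1 higher gene.

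Lists of dendritic cell subsets differed less uniformly. Over all genes in Ccr7 cells against Cd209a cells, 4.58% were higher and 3.8% lower, with a median log2 of −0.01. Of 14 dendritic cell core genes, 0 were higher and 3 lower in Ccr7 cells against Cd209a cells (median log2 −0.37): Bcl11a, Ciita and Napsa. Of 16 genes of type 2 and monocyte-derived dendritic cells, 0 were higher and 6 lower (median log2 −0.62), among them the lectin Clec10a (0, 71.8 and 265 CPM in Ccr7 cells, against 701, 841 and 714 CPM in Cd209a cells). Of 9 genes of type 1 dendritic cells, 2 were higher, the transcription factors Irf8 (9.62-fold) and Id2 (5.67-fold), and 3 lower (Naaa, Wdfy4 and Ppt1). The type 1 markers Xcr1 and Clec9a had 0 UMIs in Ccr7 cells in all 3 libraries. Against cells with neither, core genes were higher for 9 of 14 in Ccr7 cells and 13 of 14 in Cd209a cells, type 2 genes for 3 and 11 of 16, and type 1 genes for 2 and 3 of 9. Over all genes 4.28% and 11.5% were higher in these 2 contrasts.

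Gene lists around the roles of single members were short, and their calls went both ways. Over all genes, 4.58% were higher and 3.8% lower in Ccr7 cells against Cd209a cells. Against cells with neither, 4.28% were higher and 4.86% lower in Ccr7 cells, and 11.5% higher and 14.8% lower in Cd209a cells. Of 5 tested genes of the kynurenine pathway, Il4i1, which oxidises aromatic amino acids, was higher in Ccr7 cells against Cd209a cells (1108, 455 and 398 CPM against 5.31, 2.23 and 8.31 CPM) and 4 were not called. Kynu and Haao, which act after Kmo, were higher in Cd209a cells against cells with neither, together with Il4i1. Of 14 actin genes, Marcksl1, Swap70 and Marcks were higher and Rac2 and Coro1a lower in Ccr7 cells against Cd209a cells. Against cells with neither, 5 of the 14 were higher and 0 lower in Ccr7 cells, and 4 higher and 2 lower in Cd209a cells. The receptors for metabolites Gpr35, Gpr84, Ffar4 and Hcar2 were not called in Ccr7 cells against Cd209a cells or against cells with neither. In Cd209a cells against cells with neither, Ffar4 was higher, Gpr84 and Hcar2 were lower and Gpr35 was not called. Of 16 ligands and receptors of the 10 genes in the files, only Klrk1, Dpp4 and Flt3l had enough UMIs to be tested. None of the 3 was called in Ccr7 cells against Cd209a cells, while Dpp4 and Klrk1 were higher on both sides against cells with neither.

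Among called genes with at least 50 CPM in 1 of the 2 groups in every library, the 10 with the largest rise in Ccr7 cells against Cd209a cells were Cacnb3, Serpinb6b, Fscn1, Il2ra, Cd200, Tnfrsf9, Ly75, Ccl22, Mreg and Il4i1. Il2ra, the interleukin-2 receptor alpha chain, had 462, 311 and 78.0 CPM in Ccr7 cells, against 0, 1.12 and 0.416 CPM in Cd209a cells. Ly75 (DEC-205), an endocytic receptor, had 127, 59.8 and 164 CPM in Ccr7 cells, against 0, 0.558 and 0.416 CPM in Cd209a cells. By the same rule, those with the largest drop included Cd7, Cd209d, I830077J02Rik, Ltb4r1, Lbh, Arhgap15, Rgs18, Npm3 and Ffar2. Cd209d, a relative of Cd209a, had 0 UMIs in Ccr7 cells against 122, 147 and 158 CPM in Cd209a cells, at least 18.2-fold lower. Ltb4r1, a leukotriene B4 receptor, had 1 UMI in Ccr7 cells, against 167, 143 and 153 CPM in Cd209a cells.

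The genes whose counts per cell were most like each anchor were listed by Pearson's r over cells, averaged over the 3 libraries among 9079 eligible genes, as a description in which depth is shared. For Ccr7 these were Tbc1d4 (0.53), Serpinb9 (0.42), Ramp3 (0.41) and Socs2 (0.41). For Cd209a they were the lectin Clec10a (0.72), Klrd1 (0.69), Klrb1b (0.66), H2-DMb1 (0.66) and H2-Eb1 (0.65). Klrd1 was the gene most like Ffar2 (0.62) and most like Kmo (0.59). Among the 10, r between Ccr7 and Fscn1 was 0.80, 0.74 and 0.54 at days 3, 6 and 10, between Ccr7 and Ccl22 0.78, 0.69 and 0.62, and between Cd209a and Klrd1 0.69 on each day, while r between Cd209a and Fscn1 was −0.04, −0.05 and −0.02. Fscn1, in 13, 7 and 9 cells, fell below the 20 cells per library needed to be eligible.

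Across the 3 days the Ccr7 side was lowest at day 10, while Cd209a moved by less than 1.5-fold. Values are CPM over all kept cells with exact Poisson 95% intervals that cover counting error only, and in such sums fewer cells of a type and less RNA per cell cannot be told apart. Over all genes the median log2 ratio was 0.17 for day 10 over day 3, 0.24 for day 6 over day 3 and −0.07 for day 10 over day 6, and scaling by TMM moves ratios by −0.17, −0.24 and 0.07.

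At days 3, 6 and 10, Ccr7 stood at 42.2 CPM (38.2 to 46.5), 44.3 CPM (39.6 to 49.4) and 16.6 CPM (14.4 to 19.0). Any Ccr7 UMI was found in 2.56%, 3.85% and 1.62% of cells, against 0.265%, 1.05% and 1.21% of the monocyte/macrophage-like cells among them. The latter share is not a level without Ccr7, since clusters 4 and 6 held 4 and 1 of the Ccr7 cells. A day 10 cell of cluster 4 had 13 Ccr7 UMIs, so the day 10 shares cannot be read as signal against background. Median depths were 13124 UMIs in day 10 cells with Ccr7 and 8057 in day 10 monocyte/macrophage-like cells.

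Fscn1 had 6.15 CPM (4.69 to 7.91), 11.7 CPM (9.35 to 14.5) and 2.72 CPM (1.87 to 3.83), on 60, 85 and 33 UMIs. Ccl22 had 22.0 CPM (19.2 to 25.2), 26.8 (23.2 to 30.9) and 16.4 (14.2 to 18.9). Ccl17 had 19.6 CPM (16.9 to 22.6), 11.7 (9.35 to 14.5) and 2.48 (1.67 to 3.53). The 4 genes rested on few cells: the richest cell held 26.7%, 23.0% and 25.4% of the Ccr7 UMIs, and 83.8%, 40% and 73.3% of the Ccl17 UMIs. Without the cell richest in Ccl17 in each library, that gene stood at 3.18, 7.04 and 0.661 CPM, and day 6 over day 3 turned to 2.21-fold higher.

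Cd209a was the most abundant of the 10, at 326 CPM (314 to 337), 263 (251 to 275) and 290.4 (281 to 300.1), and Klrd1 followed at 98.8 (92.7 to 105), 149 (140.3 to 158) and 112 (106 to 118). Cd7 stood at 42.7 CPM (38.7 to 47.0), 33.2 (29.1 to 37.6) and 31.9 (28.8 to 35.2). Flt3 was highest at day 6, at 20.2 CPM (17.5 to 23.2), 52.7 (47.6 to 58.3) and 23.6 (20.9 to 26.5), and so was Ffar2, at 27.5 (24.3 to 31.0), 45.6 (40.8 to 50.8) and 20.1 (17.7 to 22.8). Kmo stood at 23.4 (20.4 to 26.6), 27.5 (23.8 to 31.6) and 19.3 (16.9 to 22.0). Any Cd209a UMI was found in 15.4%, 21.7% and 15.1% of cells, against 3.71%, 3.16% and 3.38% of monocyte/macrophage-like cells, and after thinning in 12.2%, 15.4% and 12.4%. Cd209a cells made up 13.9% (11.7 to 16.3%), 17.2% (14.3 to 20.5%) and 12.6% (10.8 to 14.4%) of the kept cells and Ccr7 cells 1% (0.458 to 1.89%), 1.67% (0.805 to 3.05%) and 0.661% (0.303 to 1.25%).

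With a fold of 1.5 as the mark, 0 of the 10 genes were higher and 3 lower at day 10 against day 3, where 24.6% of 11289 genes were higher and 8.94% lower. The lower ones were Ccl17 (7.90-fold, counting interval 5.36 to 12.0), Ccr7 (2.54-fold, 2.14 to 3.03) and Fscn1 (2.26-fold, 1.45 to 3.56). At day 6 against day 3, 4 were higher and 1 lower, where 28.6% of 10963 genes were higher and 7.79% lower. Flt3 (2.61-fold, 2.19 to 3.12), Fscn1 (1.90-fold, 1.35 to 2.69), Ffar2 (1.66-fold, 1.41 to 1.96) and Klrd1 (1.51-fold, 1.38 to 1.65) were the higher ones, and Ccl17 (1.67-fold lower, 1.29 to 2.19) the lower one. At day 10 against day 6, 0 were higher and 6 lower, where 5.87% of 11356 genes were higher and 10.3% lower. The 6 were Ccl17 (4.73-fold), Fscn1 (4.30-fold), Ccr7 (2.67-fold), Ffar2 (2.26-fold), Flt3 (2.23-fold) and Ccl22 (1.63-fold). With TMM scaling, Ccl22, Cd7 and Ffar2 joined the lower genes at day 10 against day 3 (0 higher and 6 lower), and at day 6 against day 3 the counts were 2 higher and 2 lower. With 1 library per day none of these ratios has a replicate check.

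**Figure D5:**
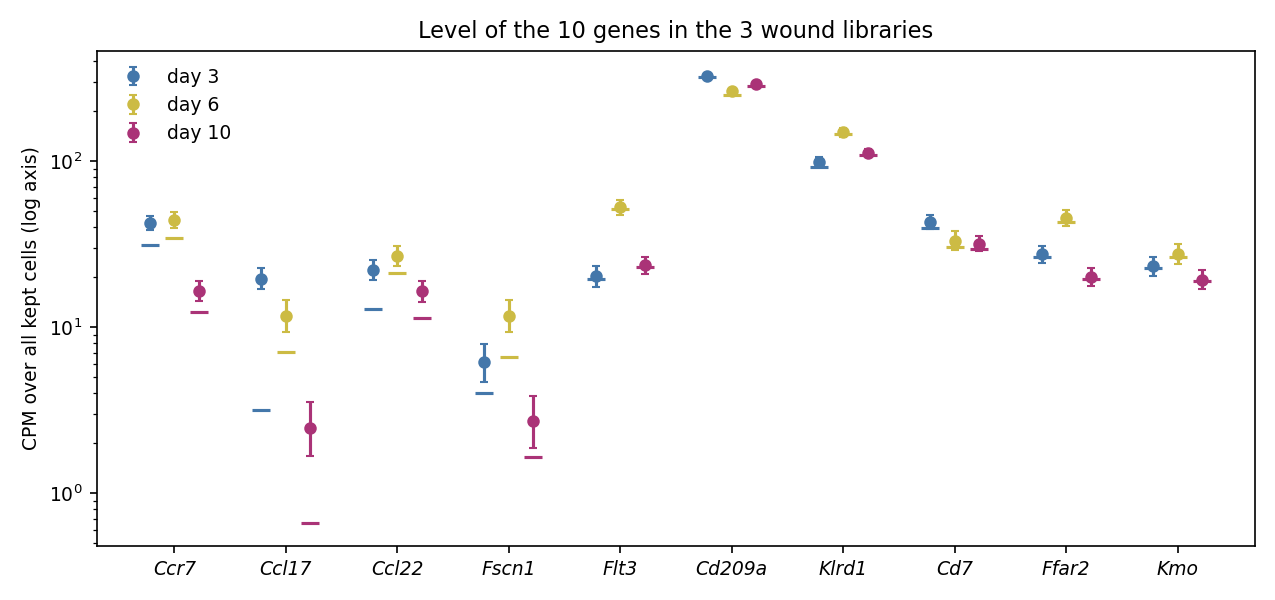
Points give the CPM of each gene over all kept cells of a library (log axis) with exact Poisson 95% intervals, for day 3, day 6 and day 10 from left to right, and the short dashes the same value without the cell that held most UMIs of that gene. Ccr7, Ccl17, Ccl22 and Fscn1 are lowest at day 10, and the day 3 dash of Ccl17, at 3.18 CPM, lies far below its point at 19.6 CPM.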

How the data were processed

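The deposited matrices hold raw UMI counts per gene and barcode, which the authors made with Cell Ranger 3.0.2 on build mm10, per the submitters' processing notes. The annotation release and the isolation gates are not given in the sources used here. Per the labels, each library pooled 2 mice and had a viability above 70%. The chemistry counts transcript ends, so isoforms are not told apart, and UMIs of near-identical genes may be lost.

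Barcodes with at least 200 genes and under 10% mitochondrial UMIs were kept, 2860 of 4877, and cells called doublets by Scrublet in scanpy 1.11.5 were kept too. Clustering used 1991 of 2000 variable genes (the members left out), 30 components, 15 neighbours and Leiden resolution 0.8. The members, lists and cell thresholds were chosen with earlier results of these data known.

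UMIs were summed per library and cell group (Ccr7 cells, Cd209a cells, neither). Genes kept by edgeR's filter on low counts (filterByExpr, by cell group) were tested with edgeR 4.0.16 (quasi-likelihood, TMM, R 4.3.3). Benjamini-Hochberg adjustment ran over all genes tested, with the anchors left out. The library was a block, because the groups of 1 library come from the same mice. P-values set the difference between cell groups within a library against how unevenly it held over 3 libraries of different days. The block takes out the spread between libraries, and the spread between animals is not measured. Days were compared as ratios of summed counts, without a test. Shares over all genes in these ratios took genes with at least 20 UMIs over both libraries. Intervals (exact, 95%) and floors of 3 counts cover counting error only. In simulated counts for Ccr7 cells against Cd209a cells over 8989 genes, 9, 48, 50 and 50 of 50 genes changed 2-, 4-, 8- and 16-fold were called, with 5 false calls among 162. The changed genes were drawn from those with a mean of at least 50 UMIs per sum, at 1 fixed dispersion for all genes. Recovery of genes with fewer UMIs, or of more variable genes, was not simulated, so these counts do not carry over to them. Named genes were the 10 with the largest change in each direction among those called, at 50 CPM or more in 1 of the 2 groups in every library. One of these is not reported here. Alternatives were DESeq2 1.42.0, other scalings, thresholds, filters, thinning to 2000 UMIs, other resolutions, no block and leaving out each library. Counting cells with both anchors as Ccr7 cells and leaving out the richest cell were added after seeing the data.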

Additional observations from a re-analysis of the deposited data

Results flagged for a closer look

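Flt3 moved in opposite directions between libraries when Ccr7 cells were set against Cd209a cells, with a log2 ratio of 2.21 at day 3, −0.41 at day 6 and 0.18 at day 10. The difference between the days was not tested, since each day has 1 library. On the UMIs themselves, the ratio was 4.64 at day 3 (counting interval 2.92 to 7.10), 0.750 at day 6 (0.452 to 1.18) and 1.13 at day 10 (0.610 to 1.94). Ccr7 cells with Fscn1, in which Flt3 was found more often, made up 9 of 9 Ccr7 cells at day 3, 6 of 10 at day 6 and 3 of 9 at day 10.

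Among barcodes that the cell filter left out, 7 of 598 at day 6 and 9 of 847 at day 10 had at least 2 Cd209a UMIs, above the limit of 3 that a count of 0 allows, and 3 of 572 did at day 3. Their Cd209a level was 8.32, 17.9 and 26.4 CPM at days 3, 6 and 10, against 326, 263 and 290.4 CPM in the kept cells.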

How the results depend on the processing

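Of the members' tests under the alternatives, 396 kept direction and call, 11 lost a call, 7 gained one and 16 reversed. Fscn1, Ccl17 and Ccl22 stayed higher in Ccr7 cells than in Cd209a cells in 18 of 18 alternatives. The reversed results were not called in the fits reported above, and of the reversed values Ffar2 at 1 UMI and with cells holding both was called; the cause was not tested. Flt3 turned to −0.21 (log2, Ccr7 against Cd209a cells) without day 3, in a range up to 1.13 over libraries left out. In Ccr7 cells against cells with neither, Ffar2 turned to 2.86, 1.07 and 1.90 at 1, 3 and 5 UMIs, 0.59 after thinning, 2.48 with cells holding both counted as Ccr7 cells and 0.27 without day 6 (−1.31 without day 3), and Cd7 to 2.67 at 1 UMI and 2.08 with cells holding both. In Cd209a cells against cells with neither, Ccl22 turned to −0.43 at 5 UMIs, −1.26 after thinning, −0.25 and −0.12 at mitochondrial limits of 20% and 5%, −0.15 with all barcodes, −0.82 without day 3 and −0.03 without day 6 (1.48 without day 10). Ccl17 at day 6 over day 3 turned to 2.21 without the richest cells. Kmo gained a call in Ccr7 cells against Cd209a cells in 3 alternatives and against cells with neither in 4.

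Leaving out 1 library gave 173 to 444 genes higher and 48 to 267 lower in Ccr7 cells against Cd209a cells, 209 to 383 and 120 to 318 in Ccr7 cells against cells with neither, and 356 to 1404 and 626 to 1581 in Cd209a cells against cells with neither, each lowest without day 10. Without the replicate block 695 genes were higher in Cd209a cells against cells with neither, and Klrd1 lost its call between Ccr7 and Cd209a cells (log2 −1.52). With no filter on low counts 664 genes were higher, and with only the 2 groups in the fit 145 were lower, in Ccr7 cells against Cd209a cells. Against cells with neither, 597 were higher in Ccr7 cells by DESeq2, 681 with cells holding both, and 270 lower at 1 UMI. TMM and median-of-ratios scaling each gave 2 members higher and 2 lower at day 6 against day 3 and 6 lower at day 10 against day 3, and without the richest cells 0 were lower at day 6 against day 3. The share of Ccr7-positive cells that were Cd209a-positive was 21.2% at 5 UMIs, 9.09% after thinning and 73.7% by 4-gene sums. By day it was 11.1% after thinning and 85% by sums at day 3, 14.3% at 5 UMIs and 14.3% after thinning at day 6, and 0% after thinning and 73.3% by sums at day 10.

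The number of cells limits what a 0 in the 28 Ccr7 cells shows, since it allows up to 10.7% of cells with a UMI (exact upper limit 12.3%).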
